A study of Mus musculus with 2 samples.

Results

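Etv1+ secretory-rich cells of the mouse parotid gland (PG) were cells that held RNA of the ETS transcription factor Etv1 together with a transcriptome filled by saliva proteins. They were chosen by counts of unique molecular identifiers (UMIs), each of which stands for 1 captured RNA molecule. A cell belonged to the class if it had at least 2 Etv1 UMIs, if Amy1, Bpifa2, Smr3a, Pip, Car6, Chia1, Dnase1 and Cst10 together took at least 65% of its UMIs, and if Dcpp1, Dcpp2 and Dcpp3 took less than 15%. Of 8664 cells kept in the study (at least 200 genes and at most 5% mitochondrial UMIs), 224 were Etv1+ secretory-rich. They were 135 of 3378 control cells (4.0%, exact binomial 95% interval 3.36 to 4.71) and 89 of 5286 cells of the irradiated (IR) gland (1.68%, 1.35 to 2.07).

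The control and IR libraries were both made from C3H wild-type (WT) female mice of about 1 year, and each pooled the dissociated parotid glands of 2 mice. IR mice had been given 6 Gy a day for 5 days to the head and neck, 30 Gy in total, and their glands were taken 10 months later. Libraries were made with the 10x Chromium single-cell kit, and the control library held 22707876 UMIs in 5550 barcodes and the IR library 23890757 UMIs in 7793 barcodes. With 1 library a condition, and no label that tells the pooled mice apart, no test between conditions was possible, and all intervals below are 95% intervals that cover counting error only. The libraries shared 12 barcodes, 1 of them an Etv1+ secretory-rich cell of the control library.

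Parotid acinar cells are serous cells that fold saliva proteins in an extensive endoplasmic reticulum (ER) and release them into ducts, with water that follows chloride and sodium. Etv1 belongs, with Etv4 and Etv5, to the PEA3 group of ETS factors, which bind DNA with a GGAA core and are known as targets of receptor tyrosine kinase and ERK signaling. Malat1 and Neat1 are long non-coding RNAs that are kept in the nucleus, and Xist is the nuclear RNA that coats the inactive X chromosome of female cells.

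Etv1 lies on chromosome 12 (chr12:38779380-38870484, + strand, GRCm38, protein coding). The 300 bases around its RefSeq start (250 before and 50 after, chr12:38779832-38780131, + strand, GRCm38.p6) are shown because Etv1 defines the class, with GGAAGT, letters found within sites of ETS factors, in capitals.
Etv1: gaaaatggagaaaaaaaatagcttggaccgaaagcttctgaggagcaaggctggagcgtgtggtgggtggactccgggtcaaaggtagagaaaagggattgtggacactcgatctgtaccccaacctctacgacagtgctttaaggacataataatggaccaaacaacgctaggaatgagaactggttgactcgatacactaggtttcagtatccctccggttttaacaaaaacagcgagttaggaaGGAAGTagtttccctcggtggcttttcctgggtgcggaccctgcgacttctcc
Of all 27025 RefSeq promoters of the same length, 24.1% held GGAAGT on either strand. The share was 31.5% among the 1012 matched promoters of the 1294 genes that could be compared between Etv1+ secretory-rich and acinar cells in both libraries. It was 23.0% (32 of 139 matched) among the 179 genes that were higher in Etv1+ secretory-rich cells in both. A match describes the letters and is not a binding site.

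Etv1+ secretory-rich cells were the deepest of the secretory cells. The rule asks for a fixed count of at least 2 Etv1 UMIs, which deep cells reach more easily, so it picks deep cells by itself. Control members held a median of 43604 UMIs (lowest 4399, highest 111931) on 2586 genes, and IR members 33861 UMIs (1758 to 82124) on 2209 genes. All kept cells had medians of 2907.5 and 2461.5 UMIs. Although they were few, Etv1+ secretory-rich cells therefore carried 31.5% of all UMIs of kept control cells and 15.4% of those of kept IR cells. Etv1 itself had a median of 6 UMIs a cell (2 to 34) in the control library and 4 (2 to 25) in the IR library.

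The secretory genes that chose the cells are given as shares of all UMIs, as a description. Bpifa2, the parotid secretory protein, led with 36.8% of UMIs in control and 42.1% in IR cells, and was the most abundant of the 8 genes in 134 of 135 and 89 of 89 cells. Smr3a, a salivary protein precursor, took 12.2% in control and 7.01% in IR cells, and Chia1, an acidic chitinase, 8.52% and 8.79%, so that Smr3a came next in the control library and Chia1 in the IR library. Amy1, the salivary amylase, took 6.72% and 6.03%. Pip, Dnase1, Car6 and Cst10 each took between 1.48% and 3.52%. B-cells (cells with Cd79a, with Cd79b or Ms4a1, with no Etv1 UMI and with under 30% of UMIs on these genes), which do not make saliva proteins, had medians of 5.38% (control) and 5.19% (IR) of UMIs on the same 8 genes, so RNA of these genes was present outside secretory cells.

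The comparison class was the acinar cells without Etv1, which met the same secretory and Dcpp limits with no Etv1 UMI, and numbered 317 control and 289 IR cells. The control acinar cells had medians of 5682 UMIs and 446 genes, and the IR acinar cells 6198 UMIs and 510 genes. A further 65 control and 51 IR cells with a single Etv1 UMI lay just outside the class (medians 8717 and 6333 UMIs), and the 19 and 15 members with exactly 2 Etv1 UMIs lay just inside (19823 and 12409 UMIs). At the secretory limit, 22 control and 24 IR members had 65 to 70%, and 14 and 15 cells with at least 2 Etv1 UMIs had 60 to 65%. No cell with enough Etv1 and secretory RNA had between 10 and 20% of UMIs on Dcpp1, Dcpp2 and Dcpp3.

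The depth of a cell and its Etv1 call went together, as a limit on a fixed count of UMIs leads to by construction. Among all secretory-rich cells of the control library, those with at least 2 Etv1 UMIs were 1.20% of 167 cells with under 5000 UMIs, 14.6% of 89 cells with 10000 to 20000, 51.4% of 70 cells with 20000 to 40000 (39.2 to 63.6) and 95.2% of 84 cells with 40000 or more (88.3 to 98.7). The IR library gave 5.88% of 136, 12.3% of 73, 54.3% of 46 and 97.6% of 41 cells in the same bins. The Etv1 level did not stay flat over these bins either: in counts per 1000000 UMIs (CPM) over all genes it was between 47.2 and 51.7 in the control bins below 20000 UMIs, 129 at 20000 to 40000 and 157 at 40000 or more. In the IR library it was 85.4 under 5000 UMIs, 43.0 at 5000 to 10000, 54.5 at 10000 to 20000, 101 at 20000 to 40000 and 147 at 40000 or more, so it did not follow depth in every bin. Almost every secretory-rich cell of 40000 or more UMIs thus met the Etv1 limit in both libraries, and few below 10000 UMIs did. A shallow cell that did not meet it was not shown to lack Etv1.

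**Figure D1:**
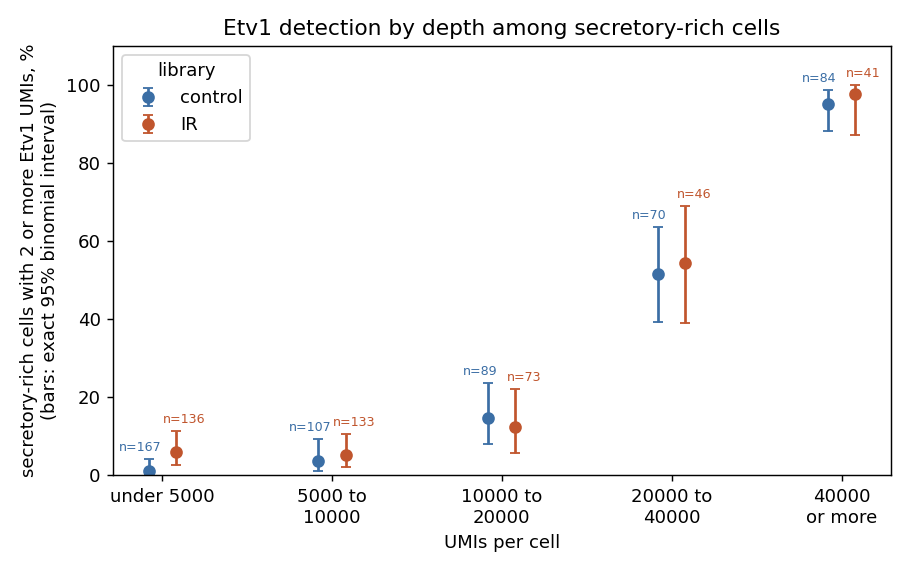
The share of secretory-rich cells with 2 or more Etv1 UMIs (y axis, %) is plotted against UMIs per cell (x axis, 5 bins) for the control and IR libraries, with exact 95% binomial bars and the number of cells. In both libraries the share goes from below 6% in the shallowest bin to above 95% in the deepest.

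The 2 classes differed in nuclear and mitochondrial RNA. They also differed in depth (medians of 43604 and 5682 UMIs in control, 33861 and 6198 in IR), and a gene is detected more easily in a deep cell. Malat1 was detected in 133 of 135 control (98.5%) and 86 of 89 IR (96.6%) Etv1+ secretory-rich cells, but in 144 of 317 (45.4%) and 78 of 289 (27.0%) acinar cells without Etv1. Xist was found in 126 (93.3%) and 80 (89.9%) Etv1+ secretory-rich cells against 11 (3.47%) and 17 (5.88%) acinar cells, and Neat1 in 92.6% and 87.6% against 22 (6.94%) and 27 (9.34%). Mitochondrial genes took a median of 0.892% and 1.17% of UMIs in Etv1+ secretory-rich cells and 0.0497% and 0.204% in acinar cells. Less than 0.1% mitochondrial UMIs was seen in 4 of 135 and 3 of 89 Etv1+ secretory-rich cells, and in 212 of 317 (66.9%) and 93 of 289 (32.2%) acinar cells without Etv1.

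The gap was also present among cells of 20000 to 40000 UMIs. There, 36 control Etv1+ secretory-rich cells (median 30962 UMIs) had 2310.5 genes, 1.53% mitochondrial UMIs and Malat1 in 97.2%, while 22 acinar cells (24684 UMIs) had 1156 genes, 0.0134% and Malat1 in 45.5%. In the IR library, 25 Etv1+ secretory-rich cells (26761 UMIs) had 1955 genes, 2.07% and Malat1 in 96.0%, while 17 acinar cells (27627 UMIs) had 1319 genes, 0.0400% and Malat1 in 35.3%. So the acinar cells of this depth held fewer genes and little nuclear or mitochondrial RNA.

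**Figure D2:**
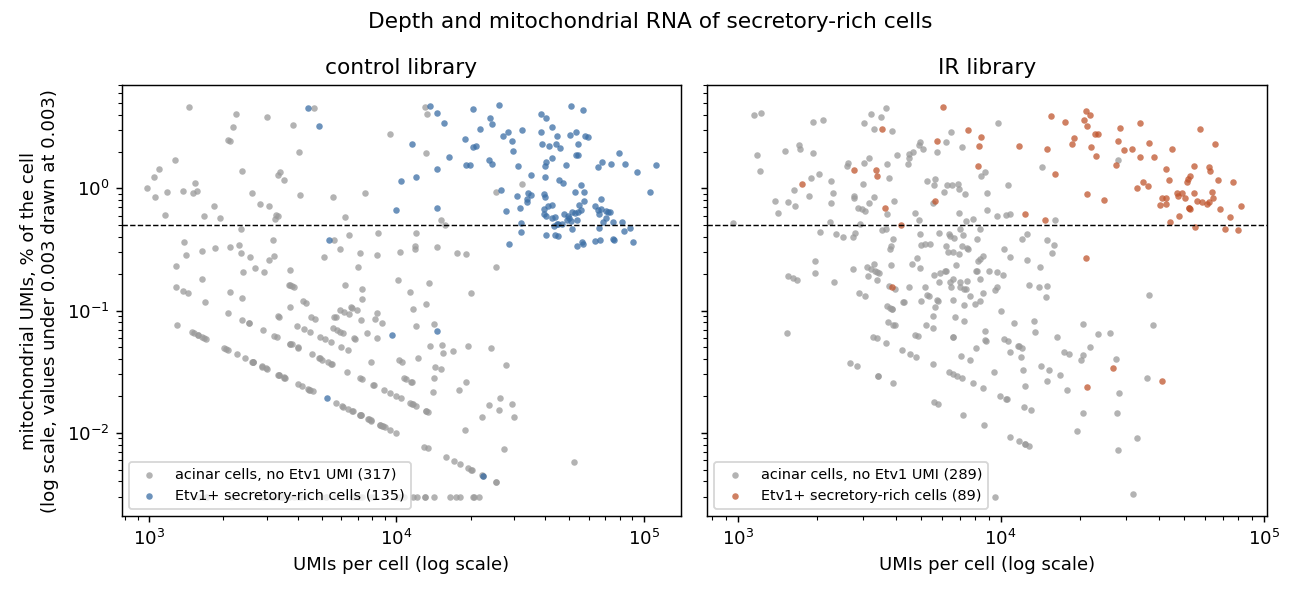
Each point is a cell, with UMIs per cell on the x axis and the percent of its UMIs on mitochondrial genes on the y axis (both log scales), for Etv1+ secretory-rich cells (colored) and acinar cells without Etv1 (grey) of each library. Most Etv1+ secretory-rich cells lie at the upper right, above the dashed line at 0.5%, and most acinar cells below it.

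Secretory-rich cells were then divided by this RNA content, a choice made after it had been seen to differ between the classes. The shares below therefore restate that difference and are a description only. Cells with and without this RNA content also differed in depth. Their medians were 33649.5 and 6563 UMIs in the control library and 15522 and 6427.5 in the IR library. Of 154 control cells with Malat1 and at least 0.5% mitochondrial UMIs, 111 (72.1%, 64.3 to 79.0) were Etv1+ secretory-rich, and of the 31 with no Etv1 UMI, 24 had under 10000 UMIs. Of 363 cells without that RNA content, 24 (6.61%, 4.28 to 9.68) were Etv1+ secretory-rich. In the IR library the numbers were 80 of 139 (57.6%, 48.9 to 65.9) and 9 of 290 (3.10%, 1.43 to 5.81), and 35 of the 40 cells with no Etv1 UMI had under 10000 UMIs. Etv1 reached 771 CPM (723 to 822) in control cells with this RNA content and 253 (219 to 291) in those without it, and in IR cells 642 (588 to 700) and 134 (104 to 169). The total behind the CPM used here and for genes below, unless all genes are named, leaves out 58 abundant features. They include saliva proteins, mitochondrial and haemoglobin genes, and were left out since the rule itself fixes the secretory share.

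Genes outside the rule were compared between Etv1+ secretory-rich and acinar cells on that scale. A gene was compared if it had at least 100 UMIs over both classes, and was counted as higher or lower if the ratio of its CPM was 1.5 or more, or as small in the other direction. Of 1962 genes compared in the control library, 491 (25.0%) were higher and 94 (4.79%) lower in Etv1+ secretory-rich cells. Of 1306 in the IR library, 222 (17.0%) were higher and 51 (3.91%) lower. The median ratio over all genes compared was 1.01 and 0.955. On CPM over all genes it was 1.35 and 1.21, with 782 genes higher and 13 lower in the control library and 351 and 7 in the IR library, and with TMM factors it was 0.856 and 0.831, with 401 and 328 in the control library and 162 and 167 in the IR library. Ratios between those medians and 1 therefore depend on the scale. Etv1+ secretory-rich cells supplied most of the UMIs, so the limit of 100 UMIs let in genes high in them more easily than genes high in acinar cells. Of the 1294 genes compared in both libraries, 223 were higher in control and 218 in IR. Of these, 179 were higher in both (80.3% of those higher in control, 82.1% of those higher in IR). Far fewer of the 1294 were lower, 62 in control and 49 in IR, and 10 were lower in both (16.1% and 20.4%). Because the sets differ in size, these percentages are not alike in what they would be without any link, and the overlaps were not tested.

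Nuclear RNAs were among the genes with high ratios. Malat1 was at 16243 CPM in Etv1+ secretory-rich and 1726 in acinar cells of the control library (ratio 9.41, 8.75 to 10.1), and at 12249 and 1688 CPM in the IR library (7.26, 6.74 to 7.83). The Neat1 ratio was 12.0 (8.47 to 17.7) and 10.7 (7.83 to 15.1), and that of Xist was 10.9 (7.60 to 16.3) and 7.57 (5.55 to 10.6). Neat1 and Xist were among the 10 highest ratios in both libraries, and Malat1 in the IR library only. Also among the 10 highest in both were Chka, choline kinase, at 24.6 and 13.6, Thbs1, the matrix protein thrombospondin, at 19.2 and 6.66, and Nktr, a large nuclear cyclophilin, at 10.9 and 7.08. The 2 highest control ratios, those of Tsc22d2 (36.3, 6.38 to 1445) and Fam13a (33.1, 11.2 to 161), rested on 1 and 3 acinar UMIs.

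Of a mixed list of salivary transcription factors, 7 of 10 genes compared were higher in Etv1+ secretory-rich cells of the control library. In the IR library 4 of 8 were higher, and none was lower in either library. As given above, 25.0% and 17.0% of all genes compared were higher, which is the background for every list in this comparison. Bhlha15 (Mist1), which drives the secretory cell program, was at 243 and 112 CPM in the control library (ratio 2.16, 1.60 to 2.98) and at 197 and 90.4 CPM in the IR library (2.18, 1.53 to 3.17). Sox9, a factor of salivary progenitors and ducts, had ratios of 3.40 (2.25 to 5.34) and 2.10 (1.33 to 3.45). Pax9 and Foxc1, both developmental factors, had 1.90 and 2.26 in the control library and 2.04 and 2.12 in the IR library. Xbp1, the unfolded protein response factor, was at 1.17 and 1.16. The median over the list was 2.03 and 1.60.

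Among ETS factors other than Etv1, 3 of 4 genes compared were higher in the control library and 1 of 3 in the IR library. Ehf, an epithelial ETS factor, was at 3.12 (2.24 to 4.48) and 2.03 (1.5 to 2.80), Elf3 at 1.71 and 1.41, and Elf5, an ETS factor of secretory epithelium, at 0.964 and 0.907. The PEA3 partners of Etv1 did not reach the limit for comparison.

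Genes that respond to receptor tyrosine kinase and ERK signaling were higher for 4 of 5 genes compared in the control library and 6 of 6 in the IR library, with medians of 2.74 and 1.99. Egr1, an immediate early factor, had ratios of 3.49 (2.64 to 4.70) and 3.14 (2.40 to 4.15). Errfi1, a feedback inhibitor of EGF receptors, was at 3.11 and 3.99, and Dusp5, a phosphatase of ERK, at 2.74 and 2.36. Phlda1, the most abundant of the list, was at 1667 CPM against 1033 in the control library (1.61, 1.46 to 1.79) and at 1883 against 1204 in the IR library (1.56, 1.42 to 1.73). Of the wider immediate early list, 11 of 19 and 10 of 16 were higher, among them Klf6 at 4.55 and 3.69, and 2 were lower in the IR library (Ier2 0.640 and Klf2 0.332).

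Few receptors could be compared, and 3 of 5 and 2 of 3 were higher. Genes with few UMIs reach the limit mainly if they are high in Etv1+ secretory-rich cells, so these counts are a description only. Erbb3, the neuregulin receptor, had 98 UMIs in Etv1+ secretory-rich and 12 in acinar cells of the control library (2.53, 1.39 to 5.07), and had too few UMIs to be compared in the IR library. Ghr, the growth hormone receptor, was at 1.5 (1.02 to 2.27) and 1.92 (1.25 to 3.04). Ntrk2, the neurotrophin receptor, was at 403 and 448 CPM in the control library and at 367 and 380 in the IR library, ratios of 0.900 (0.763 to 1.06) and 0.967 (0.797 to 1.18).

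Chloride and water transport was split. Slc12a2 (NKCC1), the cotransporter that loads acinar cells with chloride, was at 1014 and 303 CPM in the control library (3.35, 2.80 to 4.03) and at 926 and 348 in the IR library (2.66, 2.23 to 3.19). Ano1, the chloride channel of the apical membrane, was at 1.62 (1.28 to 2.08) and 2.04 (1.49 to 2.82). Aqp5, the apical water channel, was at 0.908 and 0.834, and Kcnn4, a calcium-gated potassium channel, at 1.06 and 1.04. In all, 2 of 7 transport genes were higher in each library and none lower, beside 25.0% and 17.0% of all genes compared.

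Of genes of the ER and the unfolded protein response, 5 of 28 were higher and 1 lower in the control library, and 5 of 26 higher and none lower in the IR library, shares close to those of all genes (25.0% and 17.0%). Canx, the lectin chaperone calnexin, had ratios of 2.86 (2.05 to 4.09) and 2.42 (1.77 to 3.37), and Sec61a1, the pore of the translocon, 2.85 and 1.78. The medians, 1.07 and 1.14, were near that of all genes. Junction and basement membrane genes were higher for 5 of 9 and 2 of 6. Among them were Cd44, the hyaluronan receptor, at 2.74 and 2.70, and, in the control library, Itga6 and Col7a1, which anchor epithelium to its basement membrane, at 4.12 and 4.15. Epcam, the epithelial adhesion molecule, was at 0.898 and 0.922.

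The keratins that name this population were within 1.5 times of the acinar level on the scale used here, but not on every scale or at every depth. Krt8 was at 1439.7 CPM in Etv1+ secretory-rich and 1134 in acinar cells of the control library (1.27, 1.15 to 1.40), and at 1849 and 1385 in the IR library (1.33, 1.21 to 1.47). Krt18, its partner in simple epithelium, was at 2119 and 2452 CPM in the control library (0.864, 0.806 to 0.928) and at 3032 and 2368 in the IR library (1.28, 1.19 to 1.38). B-cells of the same libraries had 36.7 and 43.6 CPM of Krt8. Etv1, Bpifa2 and Amy1 are part of the rule and so say nothing of the label, and Krt8 and Krt18 were present in both classes, while neither keratin passed 1.5 times the acinar level on this scale. On CPM over all genes the Krt8 ratio was 1.70 in the control and 1.69 in the IR cells, both past 1.5, and that of Krt18 was 1.15 and 1.62, so that control Krt18 changed direction. At 20000 to 40000 UMIs, Krt8 was at 1.0 and Krt18 at 0.827 in the control library, and at 2.29 and 2.07 in the IR library. With Malat1 and at least 0.5% mitochondrial UMIs, Krt8 was at 0.752 and 1.11 and Krt18 at 1.06 and 1.24.

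Secretory products outside the rule were higher for 1 and lower for 2 of 9 genes compared in the control library, and higher for 1 and lower for 2 of 8 in the IR library. Lpo, the lactoperoxidase of saliva, was higher at 1.66 (1.53 to 1.81) and 1.57 (1.42 to 1.74). Esp8, an exocrine gland-secreted peptide, was lower at 0.654 and 0.645, the duct kallikrein Klk1 was at 0.159 in the control library, and Bpifb1, a relative of Bpifa2, was at 0.398 in the IR library, where 194 of 454 acinar UMIs came from 1 cell, and at 1.17 in the control library. Ggh, a secreted hydrolase, was at 0.679 and 0.791, and Tcn2, a cobalamin carrier, at 1.01 and 1.02. Actin and cytoskeleton genes had medians of 0.824 and 0.819, with none higher and 1 lower in each library. MHC class I genes (0.808 and 0.857) and interferon response genes (1.03 and 0.973) had none past 1.5 in either direction.

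Most of these ratios changed when both classes were limited to cells with nuclear and mitochondrial RNA, a choice made after the data were seen. With Malat1 and at least 0.5% mitochondrial UMIs, 111 Etv1+ secretory-rich and 31 acinar cells remained in the control library and 80 and 40 in the IR library. Of the 31 genes examined here that were past 1.5 in the control library, 13 remained past it and 5 changed direction, and of 25 in the IR library, 11 remained and 3 changed direction. Slc12a2 moved from 3.35 to 1.36 (0.961 to 1.98) and from 2.66 to 1.13 (0.838 to 1.56), Bhlha15 to 1.48 and 1.21, Foxc1 to 0.571 and 0.718, Egr1 to 1.16 and 1.14, and Lpo to 1.11 and 1.08. Chka at 8.70 (2.97 to 42.3) and 2.93 (1.62 to 5.91), Thbs1 at 5.95 and 2.85, Errfi1 at 1.80 and 2.09, and Dusp5 at 2.04 and 2.11 stayed past 1.5 in both libraries.

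The lists moved likewise. The median of the salivary factors went to 1.55 in control and to 0.970 in IR cells, with 4 of 7 and 0 of 4 genes still higher. That of the immediate early genes went to 1.28 and 1.0, with 6 of 11 and 2 of 10 still higher, and that of the receptor tyrosine kinase and ERK genes to 1.80 and 1.38, with 2 of 4 and 3 of 6 still higher. Of the receptors, 1 of 3 and 1 of 2 were still higher, the control median went from 1.5 to 0.885, and Erbb3 changed direction to 0.788. Of the ETS factors, 1 of 3 and 0 of 1 were still higher, with medians of 1.20 and 0.987. Junction and basement membrane genes kept 1 of 5 and 1 of 2. Transport genes kept 0 of 2 in each library, and ER and unfolded protein response genes 1 of 5 in each. At 20000 to 40000 UMIs, by contrast, 28 of 29 genes examined in the control library and 23 of 23 in the IR library were still past 1.5. Over all genes compared at that depth, however, lower genes outnumbered higher ones, with 49 higher and 71 lower of 367 in the control library (median 0.817) and 40 higher and 74 lower of 280 in the IR library (median 0.809). The acinar cells that have nuclear and mitochondrial RNA were shallow, as given above, and RNA content and depth were not matched at once.

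**Figure D3:**
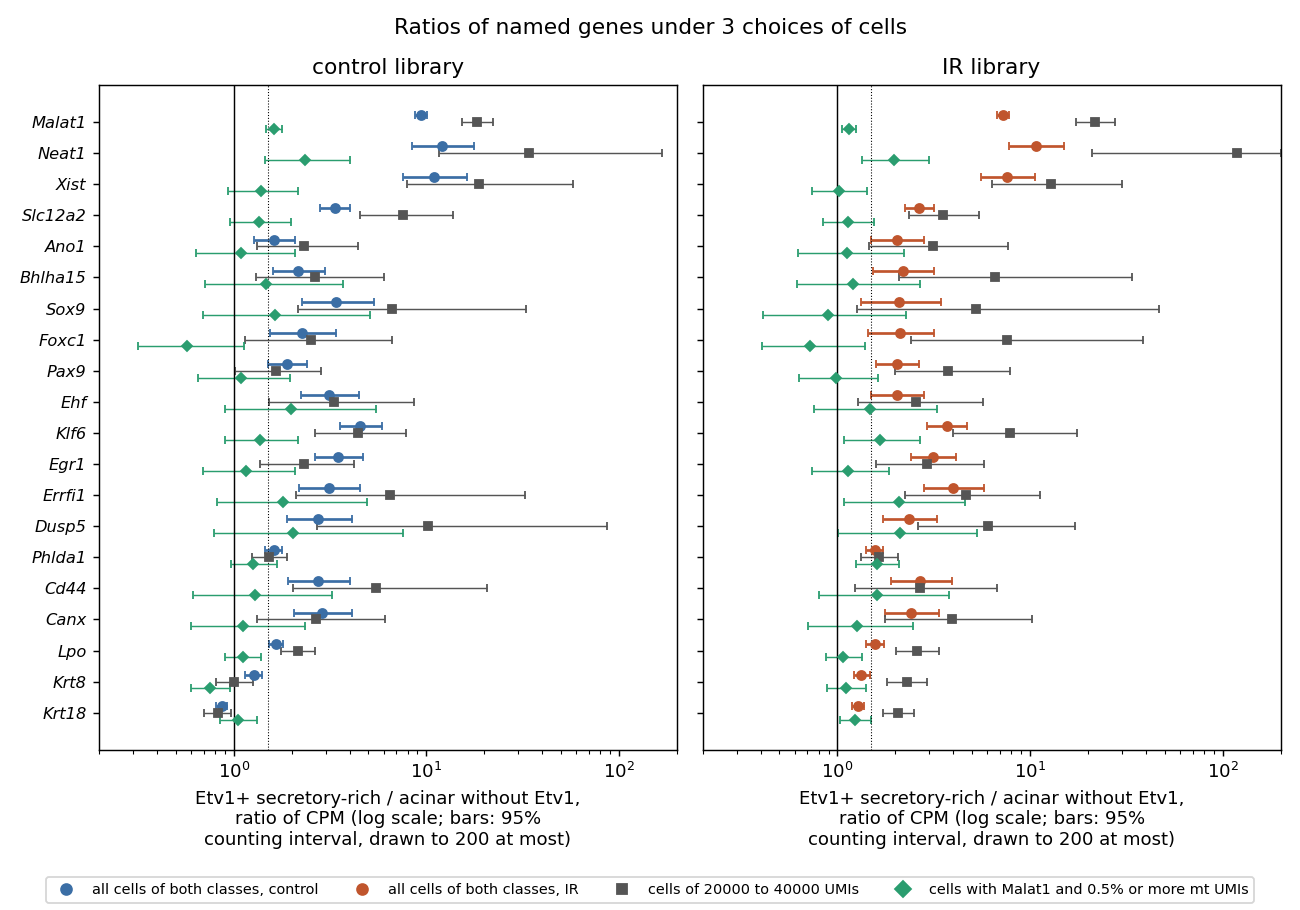
CPM ratios of 20 genes between Etv1+ secretory-rich and acinar cells without Etv1 (x axis, log scale, 95% counting bars, dotted line at 1.5) are drawn for all cells (circles), cells of 20000 to 40000 UMIs (squares) and cells with Malat1 and at least 0.5% mitochondrial UMIs (diamonds). Diamonds lie closer to 1 than circles for most genes, as for Slc12a2, from 3.35 to 1.36 in the control library.

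Cells with Etv1 but little secretory RNA were also set beside the class. These Etv1+ secretory-poor cells (at least 2 Etv1 UMIs, secretory share under 65%, and the same Dcpp limit) numbered 67 control and 73 IR cells. Their medians were 1463 and 1886 UMIs. Of 1976 and 1289 genes compared, 16.8% and 6.75% were higher in Etv1+ secretory-rich cells and 15.2% and 12.1% lower. This comparison turned on the scale: on CPM over all genes, where the saliva proteins take up most of the total, 18 and 4 genes were higher and 1367 and 745 lower, while TMM factors gave 777 and 341 higher and 165 and 74 lower. Without the UMIs of the top cell of each gene in each class, 681 and 162 were higher and 157 and 131 lower; the class totals were left as they were, which by itself lowers genes more in the class with fewer UMIs spread over fewer cells. Immediate early genes were lower for 17 of 20 genes in the control library and 11 of 17 in the IR library, with medians of 0.343 and 0.550. Markers of most other cell types were also lower in Etv1+ secretory-rich cells, with summed ratios of 0.220 and 0.0948 for immune, 0.0734 and 0.108 for myoepithelial, 0.0942 and 0.0285 for stromal and 0.157 and 0.627 for intercalated duct markers. Endothelial markers were few, with 4 against 9 UMIs in the control library and 21 against 2 in the IR library (4.51, 1.10 to 39.6). However, 1 IR Etv1+ secretory-rich cell held 19 of the 21, and 1 control secretory-poor cell 7 of the 9. In the control library the top secretory-poor cell for each list held 400 of 408 myoepithelial, 501 of 709 immune, 51 of 100 stromal and 5238 of 6273 intercalated duct UMIs. In the IR library it held 98 of 198 myoepithelial, 405 of 828 immune, 183 of 226 stromal and 693 of 2276 intercalated duct UMIs. The part of such cells in the comparison was not tested. The nuclear RNAs Malat1, Neat1 and Kcnq1ot1 were lower in both (medians 0.546 and 0.599). Krt8 was at 0.554 in the control library and 0.728 in the IR library. Secretory products outside the rule were higher for 7 of 10 and 4 of 9, among them Agt, angiotensinogen, at 2.16 and 2.44. Ntrk2 was at 1.91 and 1.40.

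Smr3a was unevenly spread over the cells of the class. Its share ran from 0.0445 to 26.7% of UMIs in control cells (median 10.8%) and from 0.00469 to 31.6% in IR cells (median 3.87%). With a limit of 1%, set after the values were seen, 20 of 135 control cells (14.8%, 9.29 to 21.9) and 28 of 89 IR cells (31.5%, 22 to 42.2) were Smr3a-low, and 5 cells in each library lay between 0.5 and 2%. In the IR library no cell lay between 0.455 and 1.18%, whereas control cells ran through the limit, with neighbors at 0.919 and 1.06%. Acinar cells without Etv1 had 51 of 317 (16.1%) and 131 of 289 (45.3%) below 1%. B-cells had median Smr3a shares of 1.04% (control) and 0.468% (IR). The 1% limit thus lay near the median of control B-cells and above that of IR B-cells. Smr3a-low cells were not shallow, with median depths of 30986.5 and 28167.5 UMIs against 44026 and 38379 in the others.

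**Figure D4:**
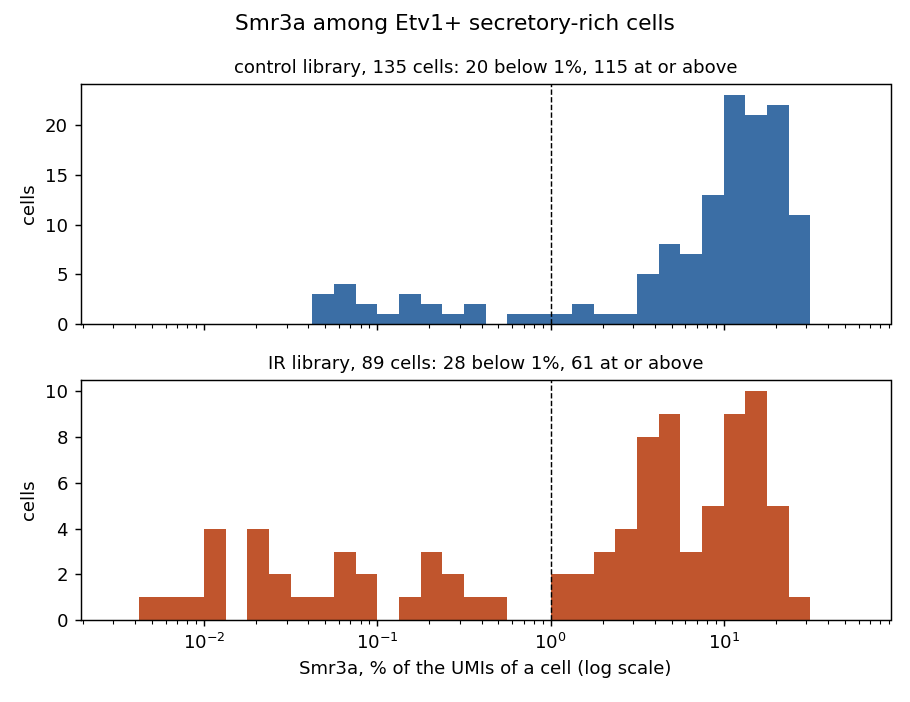
Histograms show how many Etv1+ secretory-rich cells (y axis) had a given share of UMIs on Smr3a (x axis, %, log scale) in the control and IR libraries. The dashed line at 1% divides 20 low from 115 high control cells and 28 low from 61 high IR cells, with an empty stretch at the line in the IR library only.

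Smr3a-low cells differed from the others in several secretory products, in both directions. Odam, a secreted calcium-binding protein, was at 623 CPM over all genes in Smr3a-low and 125.4 in other Etv1+ secretory-rich cells of the control library (ratio 4.97, 4.41 to 5.59), and at 1243 and 217 in the IR library (5.74, 5.15 to 6.40). Scgb1b27, a secretoglobin, was at 2.30 and 3.69 times the level of the others, and Prol1, a proline-rich salivary protein, at 1.98 and 2.08. Without the cell with most of each gene, a check added after the data were seen, Odam was at 4.21 and 4.89 and Scgb1b27 at 1.70 and 2.81, but Prol1 was at 2.31 and 0.883, since 1 IR cell held 317 of its UMIs. Prb1, another proline-rich protein, was at 1.14 and 2.08. Dcpp1, which the rule limits, was lower in Smr3a-low cells at 0.117 and 0.225, and at 0.189 and 0.284 without the top cell. Csn3, kappa-casein, was at 14.0 and 18.5 CPM over all genes in the others and had only 1 and 2 UMIs in Smr3a-low cells. Etv1 (1.07 and 1.03), Krt8 (0.919 and 0.854) and Bpifa2 (1.12 and 1.05) were at like levels in both kinds of cells. Acinar cells without Etv1 divided by Smr3a gave Odam ratios of 5.37 and 2.26, and a Dcpp1 ratio of 0.336 in the control library but above 1 in the IR library (1.62 to 1.92).

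Smr3a, Odam, Csn3 and Prol1 lie on the same strand of chromosome 5 (GRCm38). Odam spans chr5:87885029-87894174, Csn3 chr5:87925579-87932665, Smr3a chr5:88002549-88008534 and Prol1 chr5:88317312-88328814. The RefSeq promoters of Smr3a (chr5:88002275-88002574) and Odam (chr5:87884760-87885059), both on the + strand and 300 bases long, are shown because these neighbors went opposite ways between cells; neither holds GGAAGT.
Smr3a: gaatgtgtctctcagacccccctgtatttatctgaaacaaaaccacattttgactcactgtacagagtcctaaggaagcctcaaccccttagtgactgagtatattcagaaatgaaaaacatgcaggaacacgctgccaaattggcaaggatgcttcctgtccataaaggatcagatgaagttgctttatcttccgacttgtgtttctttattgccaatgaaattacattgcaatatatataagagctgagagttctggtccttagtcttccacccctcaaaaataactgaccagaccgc
Odam: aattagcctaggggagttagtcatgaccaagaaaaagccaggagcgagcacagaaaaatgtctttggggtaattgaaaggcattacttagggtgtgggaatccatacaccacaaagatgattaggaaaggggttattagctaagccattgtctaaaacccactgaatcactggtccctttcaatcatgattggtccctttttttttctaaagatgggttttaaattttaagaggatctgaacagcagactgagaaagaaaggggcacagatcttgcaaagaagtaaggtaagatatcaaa
The mice pooled in a library could not be told apart, so it was not tested whether Smr3a-low cells came from 1 mouse.

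IR and control Etv1+ secretory-rich cells were compared gene by gene. Of 2467 genes that reached 100 UMIs when the libraries were added, 108 (4.38%) were higher and 157 (6.36%) lower in IR cells by 1.5 times or more. On CPM over all genes, 183 were higher and 91 lower. Acinar cells without Etv1 gave 4.27% higher and 5.39% lower of 890 genes. Of the 24 genes examined here that were past 1.5 in this comparison, 10 were still past it among cells of 20000 to 40000 UMIs (36 control and 25 IR cells) and 3 changed direction, while 22 were with Malat1 and at least 0.5% mitochondrial UMIs. The IR members were shallower, and their Malat1 level was 0.754 times that of control members (0.736 to 0.772).

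Chac1, a glutathione-degrading enzyme of the unfolded protein response, had the highest IR to control ratio. It had 23 UMIs (16.4 CPM) in control and 79 (101 CPM) in IR cells, a ratio of 6.18 (3.84 to 10.3), and in acinar cells 9.52 (2.95 to 48.8, on 3 control UMIs). Of the ER and unfolded protein response list, 4 of 30 genes were higher and 1 lower, where 4.38% of all genes compared were higher and 6.36% lower. The same shares stand behind the list counts below, which rest on few genes. Dnajb9 (1.69), Ddit3 (1.66) and Hsp90b1 (1.59), all induced by unfolded proteins, were among the higher, and P4hb, protein disulfide isomerase, was lower at 0.656 (0.589 to 0.730). Sec61a1 was at 0.679 and Hspa5, the chaperone BiP, at 1.44. Of the 4 higher genes of the list, 2 were still higher at 20000 to 40000 UMIs. All 4 were with Malat1 and at least 0.5% mitochondrial UMIs, and the 1 lower gene stayed lower in both settings.

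Ly6a (Sca-1), a surface antigen, was at 116 CPM in control and 377 in IR cells (3.25, 2.68 to 3.96), but 89 of its 295 IR UMIs came from 1 cell, and without the top cell of each library it was at 2.42. In acinar cells it was at 2.43 (1.72 to 3.49). Ifitm3, an interferon-induced membrane protein, was at 2.18 (1.64 to 2.89), with 48 of 115 IR UMIs in 1 cell and 1.40 without the top cells, and was at 2.69 (1.69 to 4.39) in acinar cells. The other interferon genes compared, Irf9, Ifi27 and Ifi27l2a, lay between 0.861 and 1.15. Ccng1, a p53 target, was at 60.5 and 116 CPM (1.92, 1.42 to 2.62), with 1.68 (0.892 to 3.26) in acinar cells, and the other p53 genes compared were Bax at 1.31, Perp at 0.974, Ei24 at 0.967 and Btg2 at 0.843. The Ifitm3 and Ccng1 calls were lost among cells of 20000 to 40000 UMIs. With Malat1 and at least 0.5% mitochondrial UMIs, the Ccng1 call remained and the Ifitm3 call was lost. Pfn1, the actin-binding profilin, was at 1.84 in Etv1+ secretory-rich and 1.81 in acinar cells. It was the 1 higher gene of 11 actin and cytoskeleton genes, beside 3 of 11 in acinar cells. Its call was lost at 20000 to 40000 UMIs and remained with that RNA content. Cell cycle genes had too few UMIs to be compared, and Mki67 and Ube2c were at 0 in the class in both libraries.

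Of 3 keratins compared, 1 was past 1.5. Krt18 was at 2119 CPM in control and 3032 in IR cells (1.43, 1.35 to 1.51) and Krt8 at 1.28 (1.20 to 1.37). Krt23, at 126 and 202 CPM (1.60, 1.29 to 2.0), was the only keratin past 1.5 over all cells. That call was lost at 20000 to 40000 UMIs (1.46) and with Malat1 and at least 0.5% mitochondrial UMIs (1.47). The median of the 3 keratins, 1.43 over all cells, was 1.29 with that RNA content. At 20000 to 40000 UMIs it was 1.70, so Krt8 and Krt18 were both past 1.5 there. In acinar cells Krt8 was at 1.22 (1.08 to 1.38), Krt18 at 0.966 and Krt23 at 1.03. Secretory products outside the rule were higher for 4 of 10 genes, among them Agt at 1.72 (1.52 to 1.95), with 1.49 in acinar cells, and the secretoglobin Scgb2b27 at 1.72, with 1.39. Only 1 of the 4 was still higher at 20000 to 40000 UMIs, where Agt was at 1.17.

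Immediate early genes were lower for 5 of 19 and higher for 1, with a median of 0.835. In acinar cells 2 of 15 were higher and 1 lower, with a median of 1.17, and the difference between the classes was not tested. Jun, a subunit of AP-1, was at 1895 CPM in control and 1057 in IR cells (0.558, 0.515 to 0.603), and Fos, its partner, at 0.567 (0.513 to 0.626), while acinar cells had 0.892 and 1.08. Hspa1a, a heat shock chaperone, was at 0.581 and Dusp1, a stress phosphatase, at 0.590, with 0.527 and 0.984 in acinar cells. Among cells of 20000 to 40000 UMIs the direction of Fos (1.18), Hspa1a (1.34) and Dusp1 (1.48) changed, Jun was at 0.778, none of the 5 was still lower, and the median of the list was 1.18. With Malat1 and at least 0.5% mitochondrial UMIs, all 5 were still lower, with a median of 0.820. Of the salivary factors, 2 of 12 were lower, Sox9 at 0.584 (0.454 to 0.744) and Klf5, an epithelial factor, at 0.547 (0.345 to 0.843), and both stayed below 0.6 at 20000 to 40000 UMIs (0.524 and 0.291). Acinar cells had 0.945 (0.517 to 1.72) for Sox9 and 0.984 (0.346 to 2.80) for Klf5. Etv1, which chose the cells, was at 771 and 696 CPM.

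The lowest ratio was that of Lars2, the mitochondrial leucyl-tRNA synthetase, at 502 and 110 CPM (0.219, 0.173 to 0.275), with 0.424 in acinar cells. Fam13a was at 228 and 62.7 CPM (0.275, 0.199 to 0.373). Gm42418, with 9153 control and 1307 IR UMIs in the class, was not among the genes compared. None of the 8 transport, 7 receptor and 6 ETS genes compared was past 1.5, with Slc12a2 at 0.913, Erbb3 at 0.752 and Ntrk2 at 0.912. Few genes of these cells thus differed by 1.5 times between the libraries. The share was close to that in acinar cells, but over unlike sets of 2467 and 890 genes. It also moved with the limit, to 6.48% higher and 8.61% lower at 50 UMIs a gene and 3.84% and 5.35% at 200. How alike the 2 classes were was therefore not settled by these shares.

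**Figure D5:**
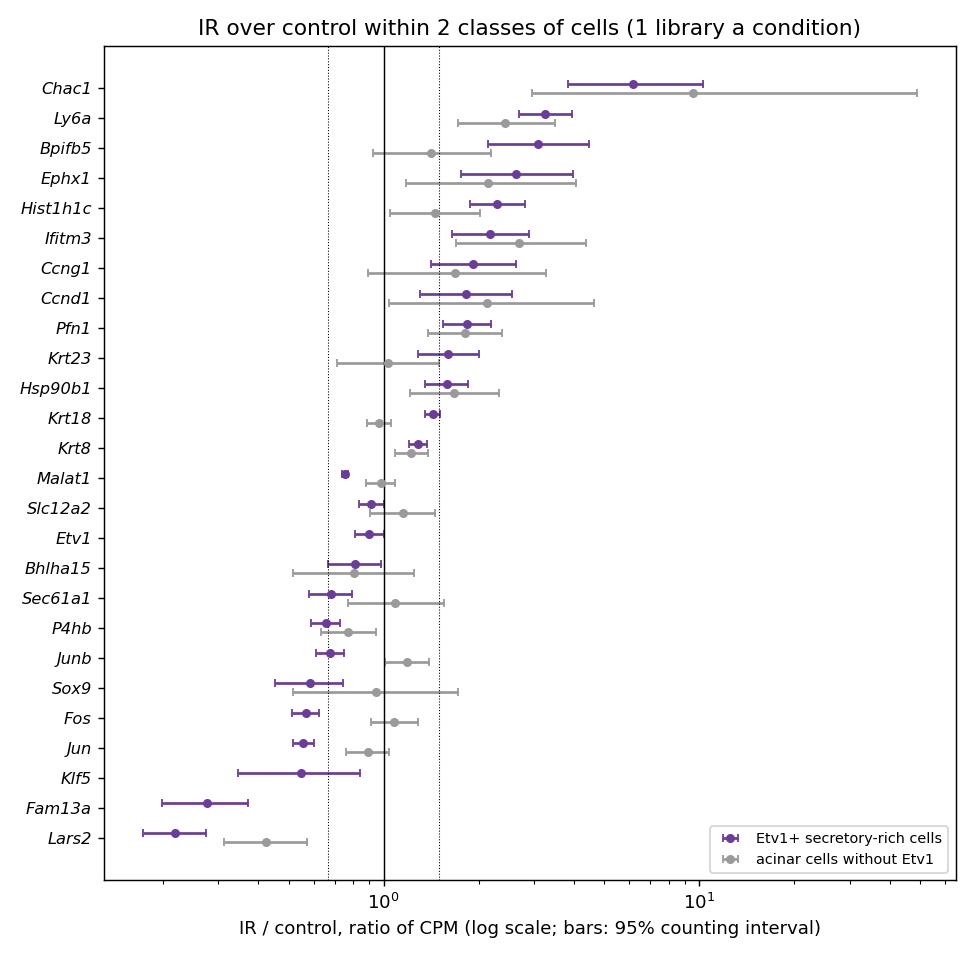
Ratios of IR to control CPM (x axis, log scale, 95% counting bars, dotted lines at 1.5 times) are drawn for 26 genes in Etv1+ secretory-rich cells (purple) and acinar cells without Etv1 (grey). Chac1 at 6.18 and Lars2 at 0.219 lie at the ends, and Jun, Fos and Sox9 lie below 1 in Etv1+ secretory-rich cells.

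Markers of most other cell types were low in Etv1+ secretory-rich cells and often came from single cells. As a sum, the 6 intercalated duct markers were neither. They summed to 4707 UMIs (3350 CPM) in 135 of 135 control cells and 3328 UMIs (4258 CPM) in 85 of 89 IR cells. At most 285 and 199 of these UMIs were in 1 cell, and acinar cells without Etv1 had 3563 and 4793 CPM. The members of this list were uneven. Most of the UMIs were of Nupr1 (1941 control and 1214 IR), Bglap3 (1875 and 1542) and Pglyrp1 (832 and 518). Wfdc18 had only 52 and 47 UMIs, and Ltf had 1 in control cells and was not detected in IR cells. The 17 immune markers summed to 744 UMIs in control cells (16 detected, Cd3e at 0) and 183 in IR cells (17 detected), with Cd74 the most abundant, and 1 cell held 460 and 69 of them. Cd74, the invariant chain of MHC class II, was at 0.308 in the IR to control comparison, H2-Aa at 0.255 and H2-Eb1 at 0.223, and without the top cell of each library they were at 0.429, 0.464 and 0.782. Without the cells of the 6% highest Scrublet scores none was past 1.5, with Cd74 at 0.884, H2-Aa at 0.895 and H2-Eb1 in the other direction at 1.24. The 8 myoepithelial markers summed to 143 and 50 UMIs, led by Acta2, with 77 and 37 in 1 cell. The 6 stromal markers summed to 45 and 15 UMIs, with Col1a1, Col1a2, Col3a1 and Pdgfra at 0 in both libraries. The 4 endothelial markers summed to 4 and 21, with Cdh5 and Kdr at 0 in control cells, and 1 IR cell held 19 of the 21. Red blood cell markers summed to 1138 UMIs in control cells, 772 of them in 1 cell, and to 141 in IR cells. The part of these RNAs in the other results was not tested, beyond the values without the top cells.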

How the data were processed

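The authors aligned the reads to mm10 and made the deposited UMI counts per gene and barcode with Cell Ranger 3.0.1. Their own analysis used Seurat, given as version 3 in the submitters' processing notes, and no value of it was used. The cell-calling setting was not given in the sources used here. The deposited counts of 48825 features were used as raw values. Cells with at least 200 genes and at most 5% mitochondrial UMIs were kept (3378 control, 5286 IR), and no doublets were removed. Scrublet (in scanpy 1.11.5) called 69 control and 14 IR cells, and its calls were not used. Etv1+ secretory-rich cells were among the 6% of highest scores in 6 of 135 control and 0 of 89 IR cells.

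UMIs were summed per class and library in Python 3.11.15 (numpy 2.4.6, pandas 2.3.3, scipy 1.17.1) and divided by the UMIs outside 58 abundant features. Intervals are 95% exact binomial, Poisson or conditional binomial intervals. They cover counting error and not differences between mice or between cells. They were checked on simulated Poisson counts, which hold counting error only. That check could not show how they hold for real cells, which varied beyond it. Cells of a library were not treated as replicates, and no test was made, since each condition was 1 library. TMM factors from edgeR 4.0.16 (R 4.3.3) were an alternative. Genes named were those of lists of pathway and cell type genes, with the most abundant and those past 1.5 times as examples, and the 10 highest and 10 lowest ratios of each comparison. The class, its limits and the lists were chosen with earlier results of these data known. Promoters and motif shares came from RefSeq (GRCm38.p6).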

Additional observations from a re-analysis of the deposited data

Results flagged for a closer look

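Rhob had opposite directions in the 2 libraries when Etv1+ secretory-rich cells were set against acinar cells without Etv1. The ratio was 1.56 (1.04 to 2.41) in the control library and 0.666 (0.460 to 0.965) in the IR library, and the difference between libraries was not tested. It was the only gene past 1.5 times in opposite directions among 1294 compared in both.

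Cd74, the MHC class II invariant chain, had an IR to control ratio of 0.308 (0.226 to 0.412) in Etv1+ secretory-rich cells and 1.84 (1.41 to 2.43) in acinar cells without Etv1, and this difference was not tested. Of 315 Cd74 UMIs in control Etv1+ secretory-rich cells, 206 came from 1 cell, and without the top cell of each library the ratio was 0.429. Without the cells of the 6% highest Scrublet scores it was 0.884.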

How the results depend on the processing

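No paired analysis was possible because each condition was 1 library, and no replicate could be left out. The share of Etv1+ secretory-rich cells moved to 5.92% (control) and 2.65% (IR) with at least 1 Etv1 UMI, to 2.01% and 0.643% at a secretory share of 75%, to 2.18% (IR) at 55%, and to 5.01% (control) at 500 genes. Counts of genes against acinar cells are given as higher and lower, control first. At a secretory share of 75% they were 186 and 41, then 45 and 17 in IR. On CPM over all genes they were 782 and 13, then 351 and 7, and with TMM factors the lower genes were 328 and 167. With ratios divided by their median the IR lower genes were 27, and with means over cells 87. At 50 UMIs a gene the counts were 1242 and 197, then 616 and 139, and at 200 UMIs 182 and 33, then 75 and 16. At 2 times, 13 were lower in the control library, and 117 higher and 7 lower in IR. Settings added after seeing the data gave 49 higher and 71 lower in control and 40 and 74 in IR cells at 20000 to 40000 UMIs, 151 in control and 55 (23 lower) in IR cells with Malat1 and 1% mitochondrial UMIs, and 288 (161 lower) and 120 with 0.5%. For IR over control in the class, higher and lower were 41 and 93 at 75%, 183 and 91 on CPM over all genes, 283 and 376 at 50 UMIs, 46 and 64 at 200 UMIs, 7 and 16 at 2 times, 35 and 46 at 20000 to 40000 UMIs and 48 and 76 with 1% mitochondrial UMIs, and means over cells gave 190 higher. Against Etv1+ secretory-poor cells, where all settings were added after seeing the data, the balance of higher and lower genes turned with several. Higher and lower in control, then in IR cells, were 18 and 1367, then 4 and 745, on CPM over all genes, 777 and 165, then 341 and 74, with TMM factors, and 740 and 510, then 376 and 272, with means over cells. They were 643 and 607, then 361 and 475, with at least 1 Etv1 UMI, 604 and 542, then 243 higher, at a secretory share of 55%, and 45 and 160, then 43 higher, at 75%. They were 613 and 739, then 214 and 451, at 50 UMIs a gene, 174 and 119, then 34 and 60, at 200 UMIs, and 92 and 145, then 8 and 54, at 2 times. They were 44 and 29, then 40 and 47, at 20000 to 40000 UMIs, and the lower genes were 167 and 96 with Malat1 and 1% mitochondrial UMIs and 89 in IR cells of at least 10000 UMIs. Leaving out the UMIs of the top cell of each gene, with class totals unchanged, gave 681 and 157 in control and 162 higher in IR cells. Fewer cells or other gene limits change how many genes are compared, and the cause of the other moves was not tested.

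Directions reversed against acinar cells in the control library with Malat1 and 1% mitochondrial UMIs for Kcnq1ot1 (0.783), Sox9 (0.828), Foxc1 (0.727), Ets2 (0.389), Itga6 (0.452), Col7a1 (0.798), Erbb3 (0.745), Ghr (0.738), Canx (0.679) and Lpo (0.992), with 0.5% for Kcnq1ot1 (0.746), Foxc1 (0.571), Ets2 (0.587), Itga6 (0.689) and Erbb3 (0.788), and at 20000 to 40000 UMIs for Klk1 (1.06). In the IR library they reversed with 1% for Slc12a2 (0.984), Sox9 (0.912), Foxc1 (0.741), Egr1 (0.848) and Sdc4 (0.830), and with 0.5% for Sox9 (0.889), Foxc1 (0.718) and Pax9 (0.987). For IR over control, Bpifb5 (0.469) and H2-Eb1 (1.24) reversed at a secretory share of 75%, H2-Eb1 (1.24) without the highest Scrublet scores, and Fos (1.18), Hspa1a (1.34) and Dusp1 (1.48) at 20000 to 40000 UMIs. The cause was not tested. Genes with few acinar UMIs have the widest counting intervals.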

Other observations

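Genes differed in how much they varied among Etv1+ secretory-rich cells. Over 302 genes with at least 300 UMIs in the class in both libraries, the squared coefficient of variation beyond counting error had a median of 0.0880 in control and 0.0826 in IR cells. Mup5, a lipocalin, reached 10.1 and 9.71, although 1 cell held 459 of its 1923 control and 341 of its 948 IR UMIs. Odam reached 4.4 and 3.41, Prol1 2.23 and 5.46, and Scgb1b27 1.78 and 3.05. Krt8 was at 1.06 and 1.19 and Krt18 at 0.757 and 1.19, above the median gene. Lpo was at 0.0755 and 0.132.

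The lowest control ratios of Etv1+ secretory-rich to acinar cells were those of Scgb1b2 (6 and 152 UMIs, 0.0122), Scgb2b2 (5 and 106, 0.0146) and Obp1a (5 and 100, 0.0155), genes of secretoglobins and an odorant-binding protein. A single acinar cell held 68, 48 and 52 of these acinar UMIs, and all of them were at 0 in both classes of the IR library.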
